A study of Mus musculus with 6 samples.

Results

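The nuclear-encoded subunits of the mitochondrial respiratory chain and ATP synthase were examined in satellite cells, the stem cells of skeletal muscle, from control and Hira cKO mice. Members were protein-coding genes of the GENCODE M21 annotation whose symbol begins with Nduf followed by a subunit letter (a, b, c, s or v) and a digit, with Uqcr, with Cox and a digit from 4 to 8, or with Atp5, together with Sdha to Sdhd and Cyc1. This gave 86 of the 55536 gene identifiers in the count files: 37 in complex I, 4 in complex II, 9 in complex III, 18 in complex IV and 18 in complex V. The symbols also matched 12 entries that were left out as not protein-coding, 11 of them processed pseudogenes. The assignment follows the symbols, so Ndufa4, now regarded as a complex IV subunit, was counted in complex I, the supercomplex factor Cox7a2l was counted in complex IV, and Ndufab1 was not matched.

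The respiratory chain passes electrons from NADH (complex I) and succinate (complex II) through ubiquinone, complex III and cytochrome c to oxygen at complex IV, and complex V uses the resulting proton gradient to make ATP. Most subunits are encoded in the nucleus and are joined in the inner mitochondrial membrane by a small set of subunits from mitochondrial DNA. Complex IV exists in tissue forms: heart and skeletal muscle replace the ubiquitous subunits COX6A1, COX7A2 and COX8A with the muscle isoforms encoded by Cox6a2, Cox7a1 and Cox8b, and the change to oxidative metabolism is a known part of myogenic differentiation.

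RNA-seq covered 3 control and 3 cKO samples of satellite cells from adult male mice on a C57BL/6J background. Controls were Pax7CreErt2;Hira fl/+ and cKO mice Pax7CreErt2;Hira fl/fl. The labels give the controls as WT, while in the study's methods they carry the Cre and 1 floxed allele. Both groups received tamoxifen in the diet, which activates the Cre in cells expressing Pax7, and then BaCl2 injury of the tibialis anterior muscle. Cells were sorted as CD34+ ITGA7+ CD45- TER119- SCA1- at 5 days post-injury and cultured for 48 h, so the libraries describe cultured, activated myogenic cells. The study describes 3 independent RNA samples per group and does not state that each came from a separate mouse. The p-values measure the spread between these samples, and whether it includes differences between mice is not known.

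Totals were 47944477 to 63323577 counts per sample, with a common coefficient of variation between replicates of 3.92%. Levels are given as CPM, counts scaled to a common TMM-normalized library size, and log2 fold changes (cKO over control) come with their standard error (SE). Hira, which encodes a histone H3.3 chaperone, had 6.69, 5.54 and 5.61 CPM in control and 3.34, 4.88 and 4.86 CPM in cKO (log2 fold change -0.43, SE 0.12, adjusted p = 0.0237). Its counts were thus lower and not absent, and without control replicate 1 the adjusted p was 0.104 (-0.34). By RT-qPCR the study reports a strong loss of Hira in cKO satellite cells, and it did not detect HIRA protein there. Counts over the whole gene are a different measure and do not give the extent of recombination. Pax7 and Myod1, which define the myogenic lineage, were detected in all 6 samples (Pax7 at 33.5 CPM or more, Myod1 at 686 CPM or more). Markers of other cells differed between the groups. All 10 macrophage markers were upregulated in cKO, with summed levels of 136 to 140 CPM in control and 284 to 328 CPM in cKO, including Ptprc, the gene of the CD45 antigen used as a negative gate, at 1.29 to 1.55 CPM and 2.61 to 2.98 CPM. All 5 tested fibroblast markers were upregulated (sums of 1085 to 1165 CPM and 1462 to 1608 CPM), as were 4 of 6 endothelial markers (14.8 to 16.9 CPM and 24.2 to 28.6 CPM), and of the members of these 3 lists Lum was the least expressed, at 0 to 0.214 CPM. Of 8 myoblast markers 7 were downregulated (sums of 7261 to 7350 CPM and 6296 to 6777 CPM), as were 7 of 11 muscle differentiation markers (36120 to 37270 CPM and 28870 to 31190 CPM).

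Few respiratory chain subunit genes passed the test, and most estimates were slightly below 0 in cKO. Of 83 members tested, 9 were downregulated and 0 upregulated (adjusted p under 0.05, edgeR), so 10.8% were downregulated. Over all 22404 genes, 6.46% were downregulated and 9.38% upregulated. At an unadjusted p under 0.05 (edgeR) the members counted 30 lower and 0 higher. All 22404 genes counted 2845 lower (12.7%) and 3331 higher at that level. DESeq2 gave 12 downregulated and 0 upregulated members, and 1252 downregulated and 1603 upregulated genes over all genes. The estimate was below 0 for 72 of the 83 members, against 50.3% of all genes, and for 28 members (33.7%) all cKO samples were lower than all controls, against 15.0% of all genes. For 0 members were all cKO samples higher than all controls, against 16.8% of all genes. The median log2 fold change was -0.074 for the members, with quartiles of -0.104 and -0.038, and -0.0011 for all genes. In bulk samples, fewer cells of a type and less RNA per cell cannot be told apart, and the marker sums above moved together with the genotype. Their part in these subunit values was not tested.

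The members are abundant transcripts, so they were also set beside genes of like abundance. Among genes with a mean of at least 10 CPM, the median log2 fold change of 78 members was -0.074, and 11.5% were downregulated and 0 upregulated. The 8774 other nuclear protein-coding genes at that level had a median of -0.013, with 12.3% downregulated and 11.6% upregulated. The share of downregulated members was thus close to that of other abundant genes; whether the lack of upregulated members differs from them was not tested. Summed over all members, the level was 8715, 8769 and 8713 CPM in control replicates 1, 2 and 3, and 8603, 7995 and 8366 CPM in cKO replicates 1, 2 and 3. All 3 cKO sums lay below the control sums, with a change of the mean of -4.71%. The largest part of this sum was complex V, which came to 3900 ± 14.9 CPM in control samples against 3718 ± 144 CPM in the cKO (SD, n = 3).

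**Figure D1:**
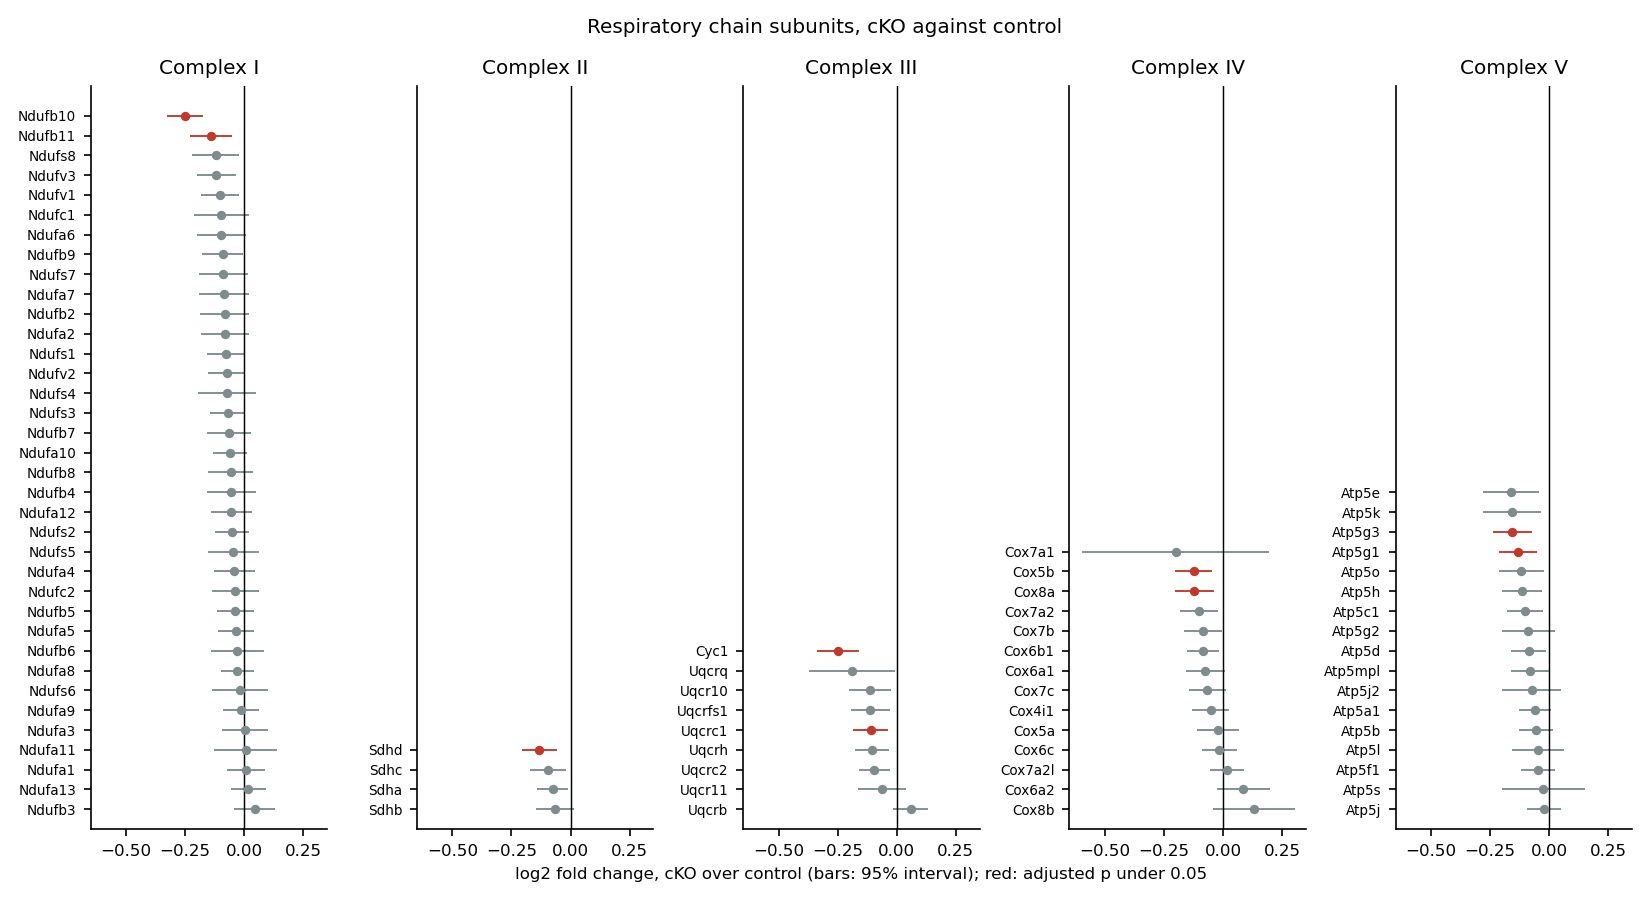
Log2 fold change of cKO over control (x axis) for each tested subunit gene, by complex, with its 95% interval, and red for an adjusted p under 0.05. Most points lie left of 0 in every complex and all 9 red points are below 0. Cox6b2, Cox4i2 and Ndufa4l2, each under 1 CPM, are not drawn because of their wide intervals.

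Complex I, the NADH dehydrogenase, had 2 downregulated genes among its 37 members (5.41%, against 6.46% of all genes). Its estimates were below 0 for 32 members (median -0.062, range -0.25 to 0.044). For 8 members (21.6%, against 15.0% of all genes) all cKO samples were lower than all controls. Both genes encode accessory subunits of the membrane arm. Ndufb10 (ENSMUSG00000040048, chr17:24722060-24724478) had 65.7, 68.1 and 69.9 CPM in control and 57.6, 56.0 and 57.8 CPM in cKO. The groups were well separated, with a log2 fold change of -0.25 (SE 0.036, adjusted p = 0.000154), and this was the largest decrease among the downregulated members. Ndufb11 had 40.9, 39.9 and 38.8 CPM in control and 36.5, 34.3 and 37.6 CPM in cKO. Its groups lay closer together (log2 fold change -0.14, SE 0.042, adjusted p = 0.0341). Of its 75-base windows, 7.67% were shared with other genes. The pseudogene Gm6444 shared 2.52%, where reads cannot be placed uniquely. Rbm10, which overlaps 12.9% of the exonic bases of Ndufb11 on the other strand, shared 5.16%. Assignment of reads in that overlap depends on the strand setting, which is not given.

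The core subunits of complex I did not pass the test. Ndufs1, which carries iron-sulfur clusters of the electron path, had 157.9, 154.1 and 159.2 CPM in control and 155.4, 141.3 and 149.3 CPM in cKO (log2 fold change -0.079, adjusted p = 0.167). For Ndufs1, cKO replicate 1 lay within the control range and the other cKO samples below it. Ndufv1, the subunit that binds NADH, had 102.8, 104.1 and 102.5 CPM in control and 100.6, 90.9 and 96.6 CPM in cKO (-0.10, adjusted p = 0.0749), with all cKO samples below the controls. The 5 complex I members with an estimate above 0 were Ndufa1, Ndufa3, Ndufa11, Ndufa13 and Ndufb3, and their estimates went no higher than 0.044. Per kilobase of exon, Ndufa1 was the highest of the complex in control (108.9 CPM per kb) and Ndufa4l2 the lowest (0.643 CPM per kb). Ndufa4l2, a paralog of Ndufa4 induced by hypoxia, ranged from 0.62 to 0.75 CPM in control and 0.50 to 0.79 CPM in cKO, with overlapping groups (adjusted p = 0.623).

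In complex II, the succinate dehydrogenase that also works in the citric acid cycle, all 4 estimates were below 0 (median -0.086). Of these 4 genes, 1 was downregulated and 3 had all cKO samples below all controls (6.46% and 15.0% of all genes). Sdhd, which encodes a membrane anchor, had 104.8, 103.6 and 103.9 CPM in control and 99.3, 90.8 and 95.1 CPM in cKO. The controls were nearly equal and every cKO sample was lower (log2 fold change -0.13, SE 0.035, adjusted p = 0.0188). Sdha, the flavoprotein, had 285.9, 295.9 and 302.4 CPM in control and 281.6, 280.5 and 277.0 CPM in cKO. The groups of Sdha did not overlap, and its difference did not pass the test (-0.076, adjusted p = 0.118). Sdhb, the iron-sulfur subunit, had 113.3, 116.4 and 113.4 CPM in control and 114.9, 103.0 and 110.1 CPM in cKO (-0.066, adjusted p = 0.299), with cKO replicate 1 inside the control range. Per kilobase, Sdhd was the highest of the 4 genes in control (84.6 CPM per kb) and Sdhc, the other anchor, the lowest (29.4 CPM per kb).

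Complex III, which passes electrons from ubiquinol to cytochrome c, had the lowest median of the 5 complexes (-0.11), with 8 of 9 estimates below 0. In 6 of the 9 members the groups did not overlap (66.7%, against 15.0% of all genes apart in this direction). The 2 downregulated genes made up 22.2% (6.46% of all genes). Cyc1 (ENSMUSG00000022551, chr15:76343523-76346260), the cytochrome c1 that hands the electron on, had 84.5, 83.5 and 75.6 CPM in control and 68.4, 67.2 and 69.4 CPM in cKO. All cKO samples lay below control replicate 3, itself the lowest control, and the estimate was -0.25 (SE 0.041, adjusted p = 0.000593). Uqcrc1, a core subunit on the matrix side, had 120.3, 118.7 and 116.5 CPM in control and 114.7, 106.2 and 108.6 CPM in cKO. Its difference was close to the threshold (-0.11, SE 0.035, adjusted p = 0.0434). The Rieske iron-sulfur protein gene Uqcrfs1 had 103.4, 106.3 and 102.7 CPM in control and 100.5, 90.4 and 98.5 CPM in cKO, with separate groups and an adjusted p of 0.0698 (-0.11). Uqcrc2 and Uqcrh were just outside the threshold (adjusted p = 0.0506 and 0.0522). Uqcrb, which binds near the ubiquinone site, was the 1 member of complex III with an estimate above 0 (0.059, adjusted p = 0.298). Uqcr11 was the highest in control per kilobase (128 CPM per kb) and Uqcrq the lowest (20.9 CPM per kb).

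Complex IV, the cytochrome c oxidase, had 2 downregulated genes among 16 tested (12.5%, against 6.46% of all genes). Of these 16 estimates, 11 were below 0 (median -0.059). For 4 of the 16 members all cKO samples were lower than all controls (15.0% of all genes). Cox5b, a zinc-binding subunit on the matrix side, had 76.2, 76.5 and 78.3 CPM in control and 72.2, 67.1 and 72.8 CPM in cKO. All its cKO samples were lower (log2 fold change -0.12, SE 0.037, adjusted p = 0.0331), and 7.42% of its windows were shared with the gene Gm11273. Cox8a, a small membrane subunit, had 175.9, 182.4 and 168.1 CPM in control and 168.6, 156.1 and 159.6 CPM in cKO. Its groups overlapped by a narrow margin at cKO replicate 1 and control replicate 3 (-0.12, SE 0.038, adjusted p = 0.041). Cox4i1, which binds the regulatory nucleotide, had 196.6, 191.6 and 192.3 CPM in control and 194.6, 176.3 and 189.3 CPM in cKO (-0.052, adjusted p = 0.402). Cox5a had 77.01, 77.36 and 72.52 CPM in control and 78.5, 70.24 and 74.98 CPM in cKO (-0.021, adjusted p = 0.816), and its sign turned under total-count scaling (0.003) and without cKO replicate 2 (0.016). For both genes the groups overlapped. Cox6b1, at the face that meets cytochrome c, was the highest of the complex in control (386 CPM per kb).

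In complex V, all 17 tested estimates were below 0 (median -0.087, range -0.16 to -0.023). For 7 members the groups did not overlap (41.2%, against 15.0% of all genes apart in this direction). The 2 downregulated members (11.8%, against 6.46% of all genes) both encode the c subunit that forms the rotating ring of the enzyme. Atp5g3 (chr2:73908447-73911326) had 148.5, 147.5 and 136.9 CPM in control and 130.5, 124.4 and 133.5 CPM in cKO. The lowest control exceeded the highest cKO sample, and the estimate was -0.16 (SE 0.038, adjusted p = 0.0104). Atp5g1 had 48.4, 47.7 and 46.9 CPM in control and 45.2, 42.8 and 42.4 CPM in cKO (-0.13, SE 0.038, adjusted p = 0.0247), with separate groups. Atp5g2, the remaining gene for the same protein, had 24.0 to 24.9 CPM in control and 21.3 to 24.8 CPM in cKO (-0.089, adjusted p = 0.308). Per kilobase the order in control was Atp5g3 (66.2 CPM per kb), Atp5g2 (14.6) and Atp5g1 (9.70). Of the windows of Atp5g1, 7.29% were shared with other genes, mostly the pseudogene Gm10039, and none of Atp5g3 were.

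The subunits of the catalytic head, Atp5a1 and Atp5b, were the most abundant members of complex V per kilobase. Atp5b had 1467, 1479 and 1478 CPM in control and 1489, 1366 and 1406 CPM in cKO (log2 fold change -0.054, adjusted p = 0.334), with cKO replicate 1 above the controls and the others below. Atp5a1 had 1162, 1176 and 1178 CPM in control and 1149, 1078 and 1141 CPM in cKO (-0.062, adjusted p = 0.223), with all cKO samples below the controls. In control they reached 374 CPM per kb (Atp5a1) and 348 CPM per kb (Atp5b). The lowest of the tested members was Atp5s (2.35 CPM per kb), which encodes a coupling factor and no core subunit.

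**Figure D2:**
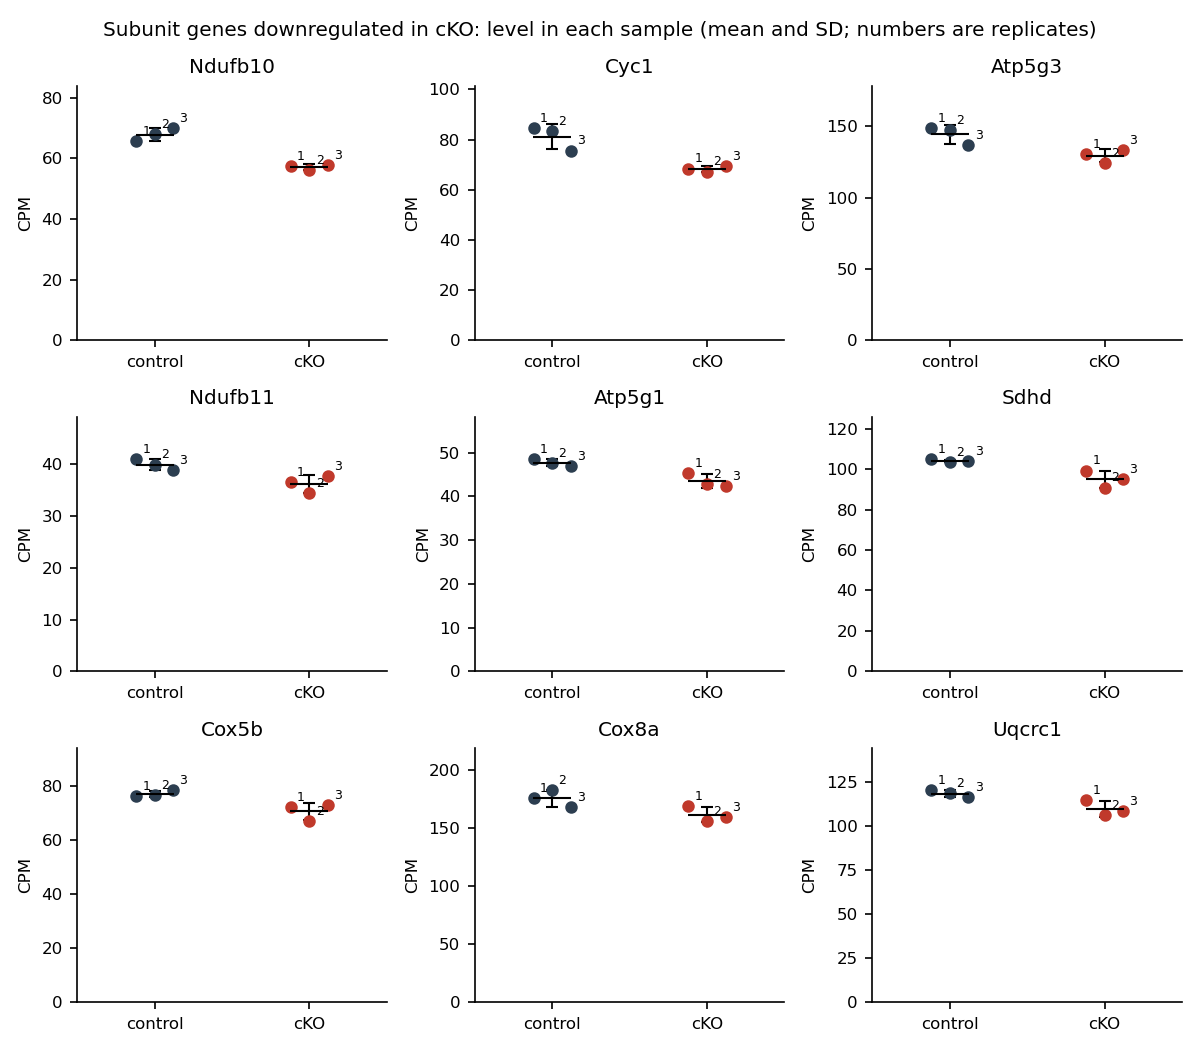
CPM in each sample of the 9 downregulated genes, with points for samples (numbered by replicate) and lines for the mean ± SD of 3 samples. The differences are small against the level of each gene, Ndufb10 and Cyc1 are the most separated, and Cox8a has overlapping groups.

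Ndufb10 and Cyc1 were downregulated in all 8 alternative analyses and in all 6 fits that left out 1 sample. Their log2 fold changes across these ranged from -0.27 to -0.23 and from -0.30 to -0.22. Atp5g3 passed in 8 of 8 and 4 of 6. The remaining 6 genes passed in 1 or 2 of the 6 fits without 1 sample, although their estimates stayed below 0 in each. Their largest adjusted p in these fits was between 0.0674 (Sdhd) and 0.216 (Cox8a). Without control replicate 2 the number of downregulated members was 2, without control replicate 1 it was 3, without control replicate 3 or cKO replicate 2 it was 5, and without cKO replicate 1 it was 31. The number of calls thus depended on single samples. The median over members was below 0 in each of these fits, from -0.10 without cKO replicate 1 to -0.046 without cKO replicate 2.

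Promoter sequence is shown for 2 downregulated genes, Ndufb10 and Atp5g3, and for 2 muscle isoforms that did not pass the test, Cox7a1 and Cox8b, so that the motif letters described next can be seen in place. They are upstream bases of the RefSeq start on GRCm38.p6, read 5′ to 3′ on the strand of the gene and limited to bases outside annotated exons. Capitals mark matches on either strand to the letters of 6 motifs searched: NRF1 (GCGCA, any base, GCGC), ETS factors such as GABPA (CCGGAAG), the estrogen-related receptor ERR (AAGGTCA), YY1 (AANATGGC), the E-box of myogenic factors (CAGCTG) and MEF2 (CTA, any 4 bases, TAG). The Ndufb10 window is chr17:24724479-24724673 (minus strand), that of Atp5g3 chr2:73911327-73911576 (minus), that of Cox7a1 chr7:30183921-30184143 (plus) and that of Cox8b chr7:140900447-140900696 (minus).
Ndufb10: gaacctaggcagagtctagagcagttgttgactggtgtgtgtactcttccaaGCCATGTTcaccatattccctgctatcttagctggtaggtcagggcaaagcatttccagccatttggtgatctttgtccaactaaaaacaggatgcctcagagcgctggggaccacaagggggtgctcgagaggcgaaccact
Atp5g3: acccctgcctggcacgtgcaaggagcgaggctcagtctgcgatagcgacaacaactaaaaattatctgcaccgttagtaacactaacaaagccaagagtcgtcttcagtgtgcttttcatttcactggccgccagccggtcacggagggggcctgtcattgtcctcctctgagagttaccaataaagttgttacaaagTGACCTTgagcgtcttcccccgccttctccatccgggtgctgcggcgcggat
Cox7a1: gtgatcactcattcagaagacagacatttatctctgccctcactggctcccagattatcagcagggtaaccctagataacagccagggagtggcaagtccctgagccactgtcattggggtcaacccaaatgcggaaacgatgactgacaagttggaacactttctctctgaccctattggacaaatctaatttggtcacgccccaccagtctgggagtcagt
Cox8b: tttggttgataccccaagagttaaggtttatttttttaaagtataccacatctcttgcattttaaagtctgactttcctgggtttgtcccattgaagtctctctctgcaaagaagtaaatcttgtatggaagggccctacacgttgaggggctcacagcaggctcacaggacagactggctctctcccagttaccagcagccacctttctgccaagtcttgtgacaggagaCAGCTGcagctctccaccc
The capitals are YY1 letters in Ndufb10, ERR letters in Atp5g3 and an E-box in Cox8b. They lie 198, 52 and 19 bases before the start in that order. Ndufb10 also has an E-box 18 bases before the start, which lies in the annotated exon and is not printed. Bases after the start were searched and are not printed. They held NRF1 letters 12 bases after it in Atp5g3 and a second E-box 16 bases after it in Cox8b. The Cox7a1 window held none of the 6 motifs.

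RefSeq promoter windows of 300 bases (250 before and 50 after the start) were matched for 68 of the 85 member symbols, and Cyc1 and Cox6a2 were not among them. A gene with more than 1 window was counted once, as holding a motif if any of its windows did. NRF1 letters were found for 17 of the 68 members and for 7.17% of 17492 protein-coding genes. YY1 letters were also found for 17 of 68 members and for 7.46% of all genes, ETS letters for 23.5% and 12.9%, and ERR letters for 11.8% and 4.73%. The E-box was found for 6 members (8.82%) and 17.4% of all genes, and MEF2 letters for 1 member (1.47%) and 4.01% of all genes. None of these differences in share was tested. These motifs belong to factors known to drive genes of the respiratory chain (NRF1, GABPA, ERR, YY1) or of muscle (myogenic factors, MEF2). Of the 8 downregulated members with a window, 3 held NRF1 letters, 2 ETS, 2 ERR and 2 YY1 letters, 1 the E-box (Ndufb10) and 1 MEF2 letters (Cox5b), so no motif was shared by all of them. A match of letters is a description and not evidence of binding.

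The muscle isoforms of complex IV passed the test in neither direction, and 2 of the 3 had estimates above 0. Cox6a2 (chr7:128205435-128206387) had 22.02, 21.04 and 20.35 CPM in control and 23.17, 20.81 and 23.36 CPM in cKO (log2 fold change 0.086, 95% interval -0.027 to 0.20, adjusted p = 0.33). Cox8b (chr7:140898945-140900446) had 10.44, 9.78 and 9.09 CPM in control and 11.97, 9.47 and 10.73 CPM in cKO (0.13, interval -0.043 to 0.30, adjusted p = 0.335). Of the exonic bases of Cox6a2, 10.3% overlap Itgad, a leukocyte integrin gene on the other strand, and the strand setting of the counting is not given in the sources used here. For both genes, cKO replicate 2 lay inside the control range and the other cKO samples above it. Cox7a1 (chr7:30184144-30186078) was near the limit of detection, with 51, 64 and 53 counts in control and 31, 55 and 48 counts in cKO (-0.20, interval -0.60 to 0.20, adjusted p = 0.553). The low value belonged to cKO replicate 1, and the groups overlapped. The partner Cox6a1 had 79.3, 80.8 and 75.0 CPM in control and 77.8, 73.4 and 72.1 CPM in cKO (-0.074, adjusted p = 0.239). Cox7a2 had 73.7, 74.7 and 72.8 CPM in control and 71.7, 65.2 and 69.3 CPM in cKO (-0.10, adjusted p = 0.088), and Cox8a was downregulated as described above.

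The ratio within each pair was compared directly. Cox6a2 made up 21.7%, 20.7% and 21.3% of the counts of its pair with Cox6a1 in control, and 23.0%, 22.1% and 24.5% in cKO. Cox8b made up 5.60%, 5.09% and 5.13% of its pair with Cox8a in control, and 6.63%, 5.72% and 6.30% in cKO. In both pairs every cKO sample was above every control sample, and the log2 ratio was higher by 0.16 and 0.25. The exact two-sided permutation test gave p = 0.1 for each, the smallest that 3 against 3 samples allow, and 0.15 after adjustment over the 3 pairs, so this test cannot reach the threshold with 3 against 3 samples. Cox7a1 made up 1.22%, 1.35% and 1.18% of its pair in control and 0.889%, 1.39% and 1.22% in cKO. These groups overlapped (log2 ratio difference -0.12, exact permutation p = 0.9), and the difference was 0.061 without cKO replicate 1. Per kilobase, the muscle isoform was 21.8% ± 0.555 of the Cox6a pair in control and 23.7% ± 1.23 in cKO, 8.74% ± 0.455 and 10.2% ± 0.725 of the Cox8 pair, and 2.19% ± 0.148 and 2.04% ± 0.439 of the Cox7a pair (SD, n = 3). The ubiquitous forms therefore made up most of each pair in both groups.

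**Figure D3:**
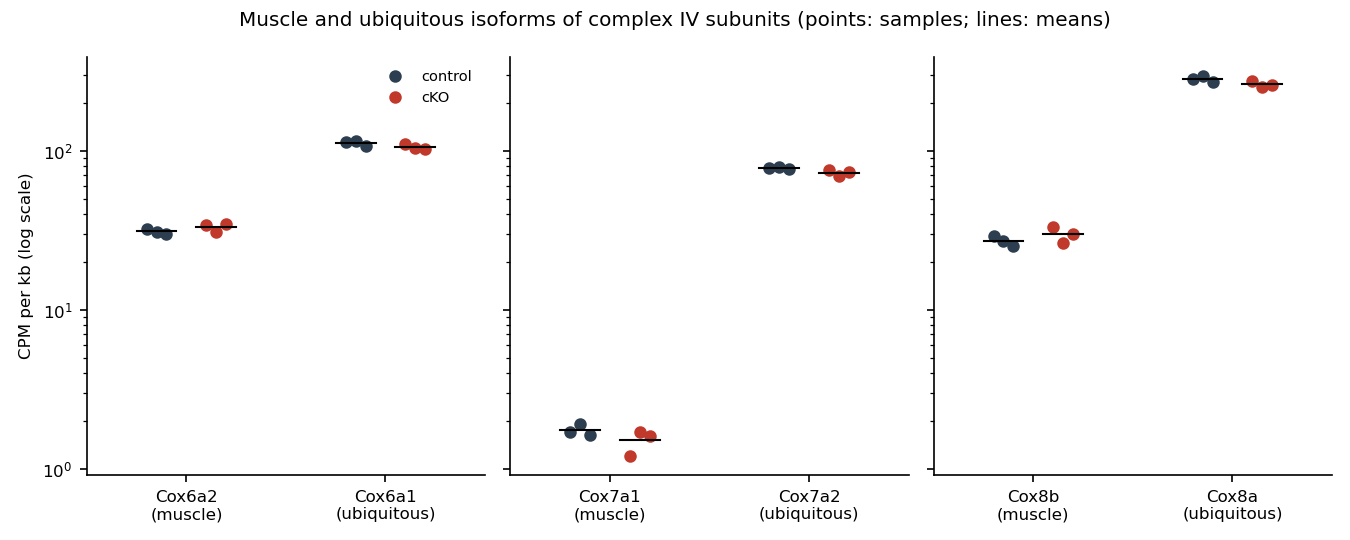
CPM per kb of exon (log axis) of each muscle isoform and its ubiquitous partner, 1 point per sample and a line for the mean of 3 samples. The ubiquitous partner lies above the muscle isoform in each pair, and Cox7a1 is the lowest of the 6 genes.

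Other tissue-restricted forms were close to absent. Cox4i2, the hypoxia-related form of subunit 4, had 7 to 18 counts in control and 10 to 15 in cKO, and its estimate (0.051, adjusted p = 0.957) fell to either side of 0 when 1 sample was left out. Cox6b2, known from testis, had 15 to 28 and 22 to 36 counts (log2 fold change 0.44, 95% interval -0.19 to 1.07, adjusted p = 0.38), an estimate with too few counts to place. Cox7b2, Cox8c and a second identifier of Atp5o (ENSMUSG00000116933) did not pass the filter on low counts: Cox7b2 had 3 counts in control replicate 2 and 0 elsewhere, and the others had 0 in all 6 samples. The expressed Atp5o identifier (ENSMUSG00000022956) had 85.7 to 90.4 CPM in control and 75.6 to 86.6 CPM in cKO. Over all tested members the mean level per kilobase spanned 0.271 (Cox4i2) to 386 (Cox6b1) CPM per kb in control. Exon length counts every annotated exon, used in these cells or not, which for Ndufb2 (3.33 CPM per kb) comes to 5628 bases.

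**Figure D4:**
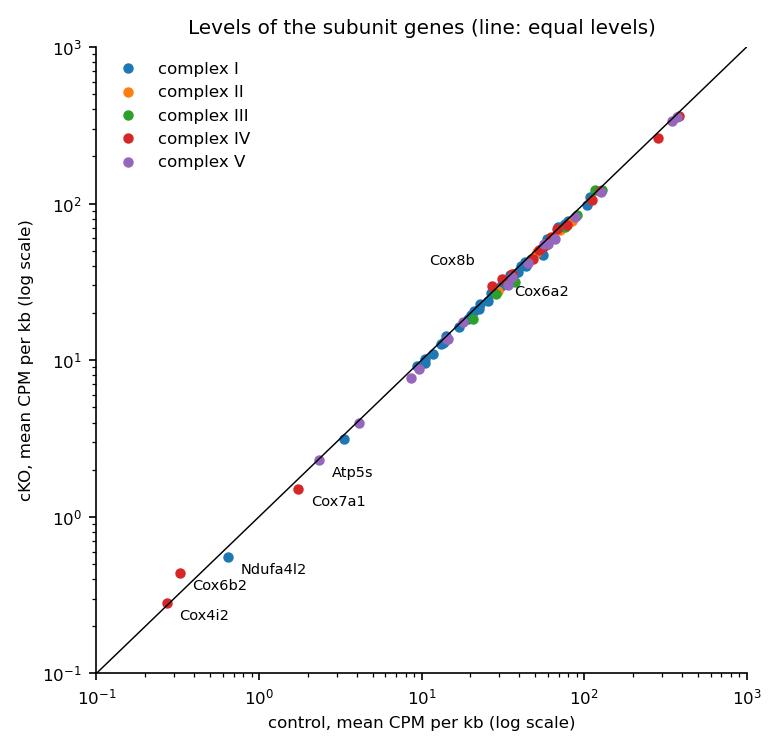
Mean CPM per kb of each detected member in control (x axis) and cKO (y axis), both on log axes, with 1 point per gene coloured by complex and a line where both groups are equal. The points follow the line over the whole range, and the named genes are the muscle isoforms and the least abundant members.

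The subunit levels were not equally low in the 3 cKO samples. For the 79 members with at least 1 CPM in every sample, the median log2 deviation from the control mean was 0.0042, 0.0037 and -0.0062 in control replicates 1, 2 and 3, and -0.017, -0.14 and -0.069 in cKO replicates 1, 2 and 3. The SD between replicates of this median, pooled over the groups, was 0.044. Replicate 2 of the cKO was thus the lowest and replicate 1 lay near the controls, and this order was found in each of the 5 complexes. Of the 79 members, 36 (45.6%) were below every control in cKO replicate 1, 72 (91.1%) in replicate 2 and 56 (70.9%) in replicate 3. Among 11975 other nuclear protein-coding genes at that level the shares were 36.99%, 38.34% and 36.99%, close to each other in the 3 samples. In cKO replicates 1, 2 and 3 the muscle differentiation sums were 31190, 28870 and 31010 CPM. The myoblast sums were 6777, 6296 and 6534 CPM, and both lists had the order of the subunits. The endothelial sums (24.15, 28.55 and 24.35 CPM) had the reverse order. The macrophage sums (295, 328 and 284 CPM) and fibroblast sums (1474, 1608 and 1462 CPM) were highest in replicate 2 and lowest in replicate 3. Single myoblast markers differed in their order among the cKO samples. Replicate 2 had the highest Pax7 (36.9 CPM), Myod1 (721 CPM) and Fgfr4 (48.1 CPM) and the middle value of Cdh15 (166 CPM). It had the lowest Myf5 (52.4 CPM), Itga7 (542 CPM), Des (2712 CPM) and Chrna1 (2018 CPM). The part of these marker levels in the lower subunit levels of that sample was not tested. Without it, the median over members was -0.046 and 67 of 83 estimates were below 0.

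**Figure D5:**
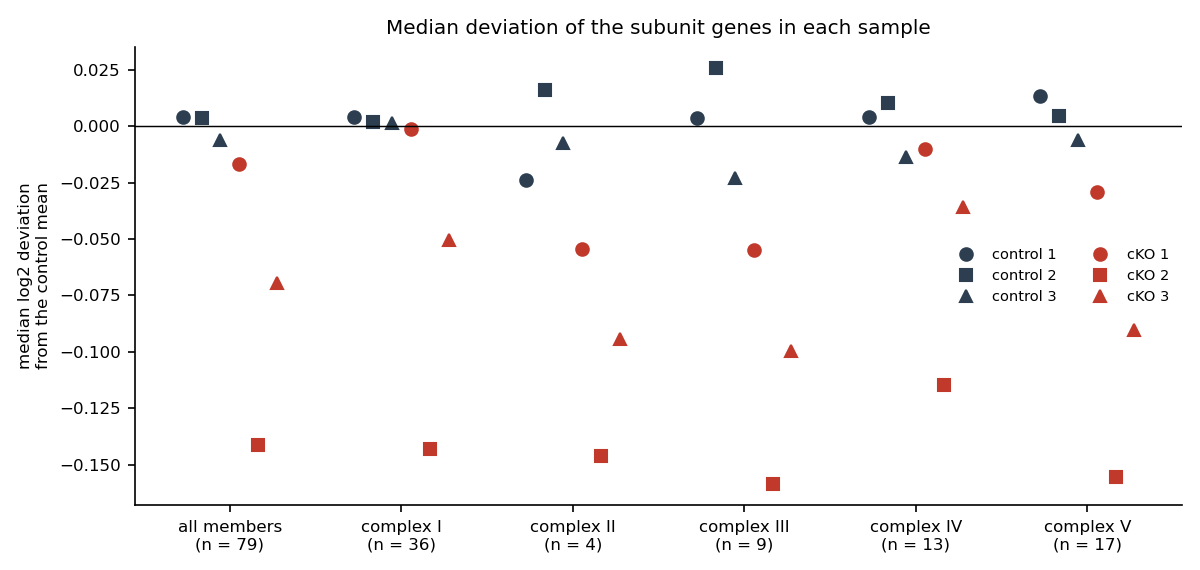
Median log2 deviation of the subunit genes from the control mean (y axis) in each sample, for all members and by complex, with the number of genes under each label. In every complex cKO replicate 2 is lowest, cKO replicate 3 next and cKO replicate 1 closest to the controls.

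Related mitochondrial gene lists had medians nearer 0. The share of downregulated genes was 4.35% of assembly factors, 7.69% of citric acid cycle genes, 11.1% of electron carriers and 5.56% of regulators. Over all genes it was 6.46%. Estimates below 0 made up 60.9%, 76.9%, 55.6% and 83.3% of these lists in the same order, against 50.3% of all genes. Of 46 tested assembly factors, 2 were downregulated and 1 upregulated, with a median log2 fold change of -0.025. Coa3, a complex IV assembly factor, had 34.2, 32.8 and 34.4 CPM in control and 28.3, 27.2 and 27.5 CPM in cKO, with clearly separate groups (-0.29, SE 0.040, adjusted p = 0.000113). Bcs1l and Lyrm7 both act in the insertion of the Rieske protein into complex III. Bcs1l was downregulated, with 13.6, 14.9 and 14.5 CPM in control and 12.9, 12.2 and 12.8 CPM in cKO (-0.19, adjusted p = 0.0332), while Lyrm7 was upregulated, with 3.18, 3.92 and 4.03 CPM in control and 5.04, 4.58 and 4.75 CPM in cKO (0.36, adjusted p = 0.0189). Among 13 citric acid cycle genes 1 was downregulated and 0 upregulated (median -0.045): Idh3g, a subunit of isocitrate dehydrogenase, with 49.3 to 50.2 CPM in control and 45.0 to 46.9 CPM in cKO (-0.12, adjusted p = 0.0286). Of 9 tested electron carriers and feeders of the chain, 1 was downregulated and 0 upregulated (median -0.0072): Etfa, which delivers electrons from fatty acid oxidation, with 16.8 to 18.4 CPM in control and 14.7 to 15.7 CPM in cKO (-0.22, adjusted p = 0.00804). Coa3 passed without any 1 sample. Lyrm7 did not without control replicate 1 (0.27, adjusted p = 0.0934) or cKO replicate 3 (0.36, adjusted p = 0.0555), and Etfa did not without control replicate 2 (-0.20, adjusted p = 0.053). Bcs1l failed without control replicate 2 or 3 or cKO replicate 2 or 3 (-0.20 to -0.16, adjusted p up to 0.159), and Idh3g without any 1 control or cKO replicate 3 (-0.13 to -0.11, adjusted p up to 0.124). With the replicate number as a block the adjusted p was 0.0621 for Bcs1l and 0.0537 for Idh3g.

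Among 18 regulators of mitochondrial genes, 1 was downregulated and 0 upregulated (median log2 fold change -0.027). Ppargc1b, a coactivator of mitochondrial genes, had 23.4, 24.9 and 25.5 CPM in control and 23.0, 21.4 and 20.2 CPM in cKO, with separate groups (-0.19, SE 0.053, adjusted p = 0.0209). It did not pass without control replicate 2, control replicate 3 or cKO replicate 3 (-0.19, -0.17 and -0.15, adjusted p = 0.0827, 0.109 and 0.104). Its relative Ppargc1a had 2.07 to 2.41 CPM in control and 2.20 to 2.82 CPM in cKO (0.15, adjusted p = 0.51). Tfam, which packages and transcribes mitochondrial DNA, had 42.2 to 43.0 CPM in control and 39.0 to 40.8 CPM in cKO, separate groups that did not pass the test (-0.090, adjusted p = 0.118). The groups overlapped for Nrf1, Gabpa, Esrra and Yy1, whose motifs were searched above, and their adjusted p was 0.49 or higher. The 13 subunit genes of mitochondrial DNA were listed at 0 in all 6 samples and were not measured.

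Gene length and shared sequence touch these values. Among genes with a mean of at least 10 CPM, in members of 1000 to 2000 exonic bases the median log2 fold change was -0.089 (30 genes), against -0.013 in 673 other nuclear protein-coding genes of that length, and it was -0.071 against -0.0076 from 2000 to 4000 bases. At the same minimum level, genes of 4000 bases or more had medians of -0.070 (10 members) and -0.015 (5599 other genes). Genes below 1000 bases had medians of -0.046 (19 members) and -0.040 (136 other genes). Of these short genes, 10.5% of the members and 22.8% of the others were downregulated, and 0% and 6.62% were upregulated. The reads were aligned without splitting over introns, so reads across exon junctions are missing and may match processed pseudogenes. Counts on 39 pseudogenes that share a 75-base window with a member equalled 16.45% to 17.15% of the members' counts in control. In cKO they equalled 16.95% to 17.06%, inside the control range. No window of Ndufb10, Cyc1, Sdhd, Uqcrc1, Cox8a or Atp5g3 was shared with another gene.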

How the data were processed

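RNA-seq of 3 control and 3 cKO samples was analysed. Reads were aligned by the authors to mm10 with Bowtie2 2.3.4.2, and the deposited values are raw counts per gene from featureCounts 1.6.3; strand setting and treatment of reads matching several genes are not given in the sources used here. A deposited table of normalized counts and the comparison table of the authors, made with DESeq2 2.11.40.6 (mean, log2 fold change, standard error, statistic, p-values), were not used. All 55536 identifiers were found in GENCODE M21, which gave symbols, coordinates and exonic lengths.

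Genes were kept with filterByExpr (22404), scaled with TMM and tested with edgeR 4.0.16 (quasi-likelihood test, genotype as the only term, Benjamini-Hochberg adjustment over all genes tested) in R 4.3.3. Totals were 47944477 to 63323577 counts. On simulated counts for 22404 genes, with 50 genes changed at each size, edgeR recovered 42% of those changed by a log2 value of 0.2. It recovered 84% of those changed by 0.4, and 10.5% of its calls were false (5.70% for DESeq2). Pair ratios were compared with exact permutation tests. Alternatives were DESeq2 1.42.0, relative-log-expression (RLE) size factors, total counts alone, no filter, a replicate block, an offset for length and GC content with and without the block, nuclear protein-coding genes only, and leaving out each sample.

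Genes named are the muscle isoforms and their partners, members past the threshold, core subunits, tissue-restricted forms, the highest and lowest member of each complex per kilobase, members that did not pass the filter, and list genes past the threshold. Other genes (members near the threshold or with estimates above 0, Atp5g2, Ndufb2, the expressed Atp5o, Tfam, Ppargc1a, Nrf1, Gabpa, Esrra and Yy1, and Ptprc and the myoblast markers) were named after their values were seen. Members and lists were chosen with earlier results of these data known. Adipocyte markers (4 of 7 tested) counted 2 higher and 1 lower in cKO, and cardiomyocyte markers (3 of 6 tested) 1 higher and 1 lower. Shared sequence was measured as exact 75-base windows of transcripts. Summaries used Python 3.11.15 (pandas 2.3.3, numpy 2.4.6, scipy 1.17.1), and plots were drawn with matplotlib 3.10.9.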

Additional observations from a re-analysis of the deposited data

How the results depend on the processing

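The number of downregulated members was 9, with DESeq2 giving 12 and RLE size factors 13, and 0 were upregulated in any alternative. It was 4 with total counts alone, 18 without the filter, 28 with the length and GC offset and 18 with nuclear protein-coding genes only, and leaving out 1 sample gave 2 to 31. All 9 genes remained downregulated with DESeq2, RLE size factors, no filter, the offset and nuclear protein-coding genes, and 4 did with total counts alone, which moved the median of all genes from -0.0011 to 0.023 (log2), while the offset moved it to -0.022. The cause of these changes in number was not tested. Over all genes, 1448 were downregulated, 2440 with the offset, and 917 to 1673 when 1 sample was left out. The median over members stayed below 0 (-0.10 to -0.046). The estimate of Cox5a turned to 0.003 with total counts alone and ranged from -0.060 to 0.016 when 1 sample was left out, turning without cKO replicate 2. That of Cox4i2, with few counts, ranged from -0.27 (without control replicate 2) to 0.37 (without control replicate 3) and was -0.12 without cKO replicate 3. The Cox7a ratio difference ranged from -0.26 (without cKO replicate 2) to 0.061 (without cKO replicate 1).

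Same-numbered control and cKO samples did not deviate together over all tested genes (correlations of -0.013, -0.0045 and -0.015). A correlation over all genes cannot exclude a pairing that touches few of them, so whether the numbers pair samples is not known. The replicate block gave 6 downregulated members, losing Cox8a, Ndufb11 and Uqcrc1, and the offset with the replicate block gave 24 members and 2239 genes. Recovery of log2 changes of 0.2 was 42% in the simulation, which changed 50 genes at each size. Most members have estimates smaller than 0.2, a size that was not simulated. How many changes of that size are missed is therefore not known.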
